A study of Rattus norvegicus with 16 samples.

Results

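This section describes microRNAs best known from epithelia, the nervous system, the liver, kidney and gut, the pancreas and the pigmented or transparent tissues of the eye, as they were measured in newborn rat hearts. A list of 32 names was matched to the array, exactly or with the ending of an arm added. The match gave 47 of the 677 rat miRNAs on the array, 18 of them star arms, and 1 listed name, rno-miR-148a, was not on it. Hearts were taken at 2 days of age from the Hypertrophic Heart Rat (HHR), a strain with inherited enlargement of the heart, and from its control strain, the Normal Heart Rat (NHR). The groups were 4 female HHR, 4 male HHR, 4 female NHR and 4 male NHR pups, untreated as far as the labels say, and each animal had an unpooled Cy3 array of its own. The tissue is described as the whole heart in the sample labels but as ventricles without atria in the design text. HHR and NHR are strains, so differences between them are not those of a single allele.

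A microRNA is cut from a hairpin precursor, and either strand (arm) of the hairpin can be loaded into the silencing complex. The star marks the arm that was thought to be the less abundant when the name was given. The complex finds messenger RNAs mainly through the seed, bases 2 to 8 of the loaded strand, so miRNAs that share a seed can share targets. Many miRNAs are abundant in a few cell types and scarce elsewhere, which is why sets of them serve as markers of tissue in a mixed RNA sample.

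The sequences shown are those of the members with signal in these hearts and of their relatives on the array, because members that share a seed or a hairpin were not detected alike. Mature sequences for 42 of the 47 members were matched in RefSeq (GRCr8), under the arm names in use now. They are written 5′ to 3′, with the seed in capitals.
rno-miR-128: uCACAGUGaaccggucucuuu
rno-miR-7a: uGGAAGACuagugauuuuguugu
rno-miR-7b: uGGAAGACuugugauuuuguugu
rno-miR-219-5p: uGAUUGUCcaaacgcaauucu
rno-miR-138: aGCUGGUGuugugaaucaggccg
rno-miR-192: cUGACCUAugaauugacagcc
rno-miR-215: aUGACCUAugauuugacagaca
rno-miR-194: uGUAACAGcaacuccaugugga
rno-miR-211*: gGCAAGGAcagcaaaggggg
rno-miR-211: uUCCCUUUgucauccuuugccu
rno-miR-204: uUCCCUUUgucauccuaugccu
The sequences of rno-miR-7a and rno-miR-7b share the seed GGAAGAC and differ by A10U, counted from 1 at the 5′ end of the first-named. Those of rno-miR-192 and rno-miR-215 share UGACCUA and differ by C1A, A12U and C20A over the 21 bases compared. The sequences of rno-miR-204 and rno-miR-211 share UCCCUUU and differ by A17U, while rno-miR-211* is the opposite arm of the rno-miR-211 hairpin and has another seed. Among the matched members the only other shared seed was that of rno-miR-200a* and rno-miR-200b*.

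A probe was counted as detected on an array where more than 0.5 of its spots were flagged well above background, and a miRNA where any of its probes was. By this measure 42 of the 47 members were detected on none of the 16 arrays, 1 was detected on every array and 4 on some. That is 89.4% of the members without detection on any array, against 67.7% of all 677 miRNAs. Under the scanner software's own flag per miRNA, a looser rule, 40 members were detected on none and 2 on every array. An undetected miRNA is one whose signal could not be told from background here, which does not show that the RNA is absent.

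Most of the miRNAs that define heart muscle were present. Of 6 cardiac markers, rno-miR-1, rno-miR-133a, rno-miR-133b and rno-miR-499 were detected on all 16 arrays, rno-miR-208b-3p on 15 and rno-miR-208 on none. The red blood cell miRNAs rno-miR-144 and rno-miR-451 were detected on all 16 arrays, and neither was called by strain. Of the 5 cardiac markers tested, 4 were called lower in HHR and none higher, with a median difference of -0.15 (log2). Over all tested miRNAs 48.5% were called lower, with a median of -0.09, and that share depended on the scaling. Each array had between 166 and 203 detected miRNAs. Array brightness before scaling, the 75th percentile of signal, ran from 417.7 to 525.2 in HHR (median 471.5) and from 294.7 to 502.9 in NHR (median 325.8). The arrays lay on 2 slides with 8 arrays each, every group having its replicates 1 and 2 on slide 1 and 3 and 4 on slide 2.

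None of the 12 epithelial members was detected. These are rno-miR-200a, rno-miR-200b, rno-miR-200c, rno-miR-141 and rno-miR-429, the family that restrains the Zeb repressors and with them the loss of epithelial character, the skin and stratified epithelium miRNAs rno-miR-203 and rno-miR-205, and the star arms rno-miR-200a*, rno-miR-200b*, rno-miR-200c*, rno-miR-141* and rno-miR-203*. Of their 3840 spots over all arrays, 1 was flagged above background, in rno-miR-200b. In the RefSeq annotation Mir200a, Mir200b and Mir429 lie close together, as do Mir200c and Mir141, so both clusters of the family were without detected members.

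The 5 neurosensory members, rno-miR-182, rno-miR-183, rno-miR-183*, rno-miR-96 and rno-miR-96*, were also undetected, with 1 flagged spot of 1600, in rno-miR-182. Their hairpins form a single cluster that is active in hair cells and photoreceptors. The 6 pancreas members had no flagged spot among 1920. They are the islet miRNA rno-miR-375, the acinar-cell miRNAs rno-miR-216a and rno-miR-217, whose hairpins are neighbours, and the star arms rno-miR-375*, rno-miR-216a* and rno-miR-217*.

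Among the 12 neural members 3 were detected somewhere. The neuronal miRNAs rno-miR-124, rno-miR-124*, rno-miR-9 and rno-miR-9* were undetected, although rno-miR-9 had 2 flagged spots of 160 in HHR. The same held for rno-miR-137 and rno-miR-137*, which act in neural differentiation, for rno-miR-129, and for rno-miR-138, known from dendritic spines. The miRNA rno-miR-7b was undetected, with 2 flagged spots of 160 in HHR and none in NHR. Signal came from rno-miR-128, abundant in brain, from rno-miR-7a, and from rno-miR-219-5p, known for its role in oligodendrocyte maturation.

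Of the 7 liver, kidney and gut members only rno-miR-192 was detected. The hepatocyte miRNA rno-miR-122 and its star arm rno-miR-122* had no flagged spot on any array. The opposite arm rno-miR-192*, the seed relative rno-miR-215, and rno-miR-194 and rno-miR-194* were undetected as well. In the annotation Mir192 has Mir194-2 as its neighbour, and Mir194-1 lies beside Mir215 within Iars2, so these miRNAs come from paired hairpins. Of the 5 members typical of pigment epithelium, choroid plexus and lens, only rno-miR-211* was detected, while rno-miR-211, rno-miR-204, rno-miR-204* and the lens and cornea miRNA rno-miR-184 were not. Mir204 lies within Trpm3 and Mir211 within Trpm1, 2 genes of the melastatin family of ion channels.

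The plot of flagged spots shows how thin the signal of most members was. Of the 42 undetected members, 34 had no flagged spot on any array and the other 8 together had 13 flagged spots, out of 13440 for all 42. Their signals before scaling ran from -3.55 to 6.90 with a median of -0.528 (linear intensity units after background subtraction). The mean signal of the negative control spots was between -0.449 and 2.06 on the same scale, so the median of the undetected members lay below the lowest of these control means. After scaling, 37 of the 42 stayed at the floor of 1.61 (log2) on every array, the level below which values were not distinguished. The other 5 were rno-miR-138, rno-miR-204, rno-miR-211, rno-miR-194 and rno-miR-7b.

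**Figure D1:**
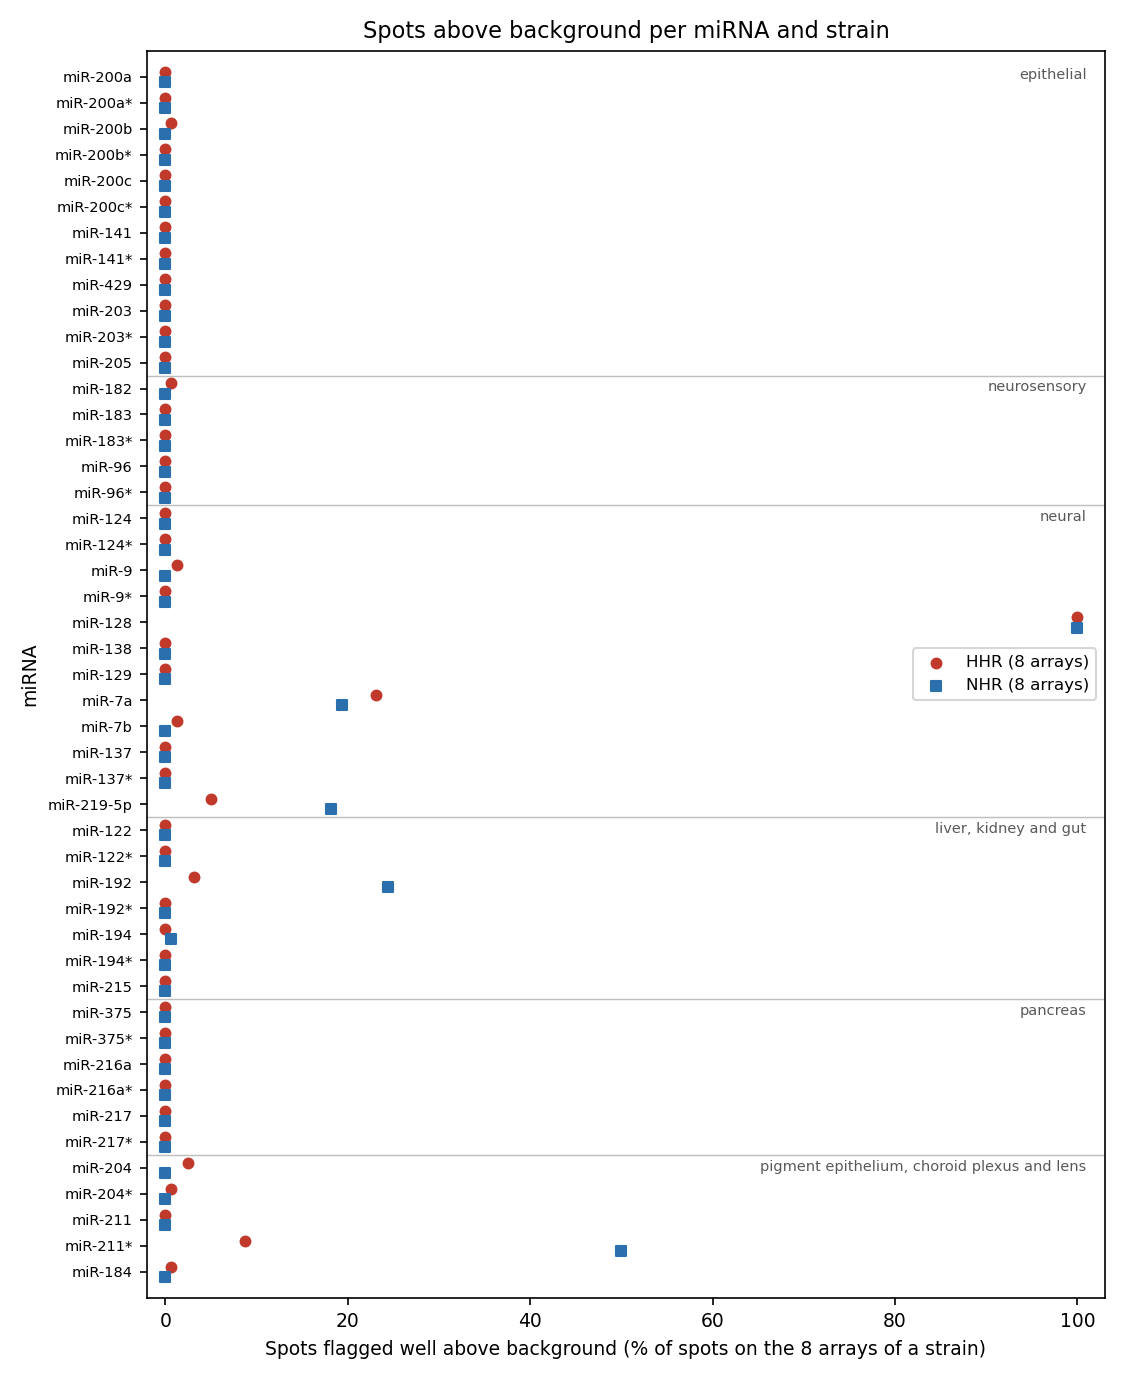
Percentage of spots flagged well above background (x axis) for each of the 47 miRNAs (y axis), grouped by tissue, with 160 spots per miRNA over the 8 arrays of each strain (circles HHR, squares NHR). Only miR-128 was at 100% in both strains, and miR-211*, miR-192 and miR-219-5p had more flagged spots in NHR than in HHR.

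The strain comparison asked which of the detected members differ between neonatal HHR and NHR hearts. Testing was limited to the 198 miRNAs detected on at least 4 arrays, which included 4 members, rno-miR-128, rno-miR-7a, rno-miR-192 and rno-miR-211*. Of these rno-miR-192, rno-miR-211* and rno-miR-7a were lower in HHR (limma, adjusted p under the threshold of 0.05) and rno-miR-128 was not called. Over all tested miRNAs 48.5% were called lower in HHR and 11.1% higher. By the stricter rule used here, neither rno-miR-192 nor rno-miR-211* was detected on any HHR array. Both therefore passed the filter only through NHR and had to be the higher there. Their differences, p-values and calls below, within slides included, describe the arrays and are no support for a strain difference, and the number of members called carries no weight of its own. The split of calls over all miRNAs also depended on the scaling. It was 96 lower and 22 higher as reported, 40 and 51 with quantile normalization, 17 and 127 with the percentile taken over all probes, 8 and 46 with no scaling, 38 and 32 with the software's total gene signal, 130 and 2 with a normexp background, and 2 and 13 in the authors' table. The median difference of all tested miRNAs was -0.09 as reported, 0.18 with the all-probe percentile and 0.24 without scaling. Single members are therefore also given relative to that median. The normexp setting added an offset of 50 to every signal, which by itself shrinks log2 differences of faint miRNAs.

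The kidney, gut and liver miRNA rno-miR-192 had a lower measured level on every HHR array than on any NHR array. Its levels in HHR ran from 2.44 through a median of 2.73 to 2.88, and in NHR from 3.28 through 3.52 to 3.71 (log2 scaled signal, n = 8 each). The groups did not overlap, which was the case for 12.1% of all tested miRNAs in this direction. The difference of measured levels in the fit, with detection on no HHR array, was -0.82 ± 0.067 (log2, SE, limma adjusted p = 3.06e-07), -0.88 in females and -0.75 in males. Relative to the median of all miRNAs it was -0.72, and it was -0.72 with the all-probe percentile and with no scaling, but -0.15 with a normexp background.

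The detections of rno-miR-192, which let it pass the filter, were all in NHR. Its spots were flagged 5 times of 160 in HHR and 39 times of 160 in NHR, and the arrays on which it was detected were NHR female 2, female 3, male 2 and male 4. Of its pair of probes, the second carried nearly all of these flags, with 4 in HHR and 39 in NHR. Both probes were lower in HHR, by 0.88 for the first and 0.79 for the second on the log2 scale (differences of -0.88 and -0.79). Under the software's looser flag per miRNA it was detected on 6 HHR and 8 NHR arrays. Because no HHR array had it detected by the stricter rule, the size is properly a bound. The second probe, with a mean level of 3.95 in NHR and a measured mean of 3.16 in HHR, was at least 1.24-fold higher in NHR, when HHR was set to the lowest signal that was well above background on each array. All NHR arrays entered the bound, also those without detection, and over both probes averaged no bound above 1 could be given. The bound was taken on scaled signals, and scaling raised most NHR arrays, which were the dimmer ones. It therefore holds only under this scaling, and no bound was computed before scaling.

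Before scaling the signal of rno-miR-192 was 5.91 to 8.25 in HHR and 8.47 to 14.4 in NHR (linear intensity, medians 7.52 and 9.59), without overlap. The share of all tested miRNAs without overlap before scaling is not given here, and this miRNA passed the filter only through NHR. These signals are therefore no support for a strain difference. Most NHR arrays were the dimmer ones. The difference was -0.85 within slide 1 and -0.78 within slide 2, and -0.78 with array brightness in the fit (limma adjusted p from 1.50e-05 to 0.00179), values that the same filter had selected. The adjusted p was above the threshold with a floor 4 times higher, which left a difference of -0.01 (adjusted p = 0.402), and in the authors' table (-0.06, adjusted p = 0.0795). A normexp background, with its offset of 50 on every signal, gave a smaller difference of -0.31 (limma adjusted p = 0.0113). No scaling gave -0.48, and the percentile over all probes gave -0.54.

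**Figure D2:**
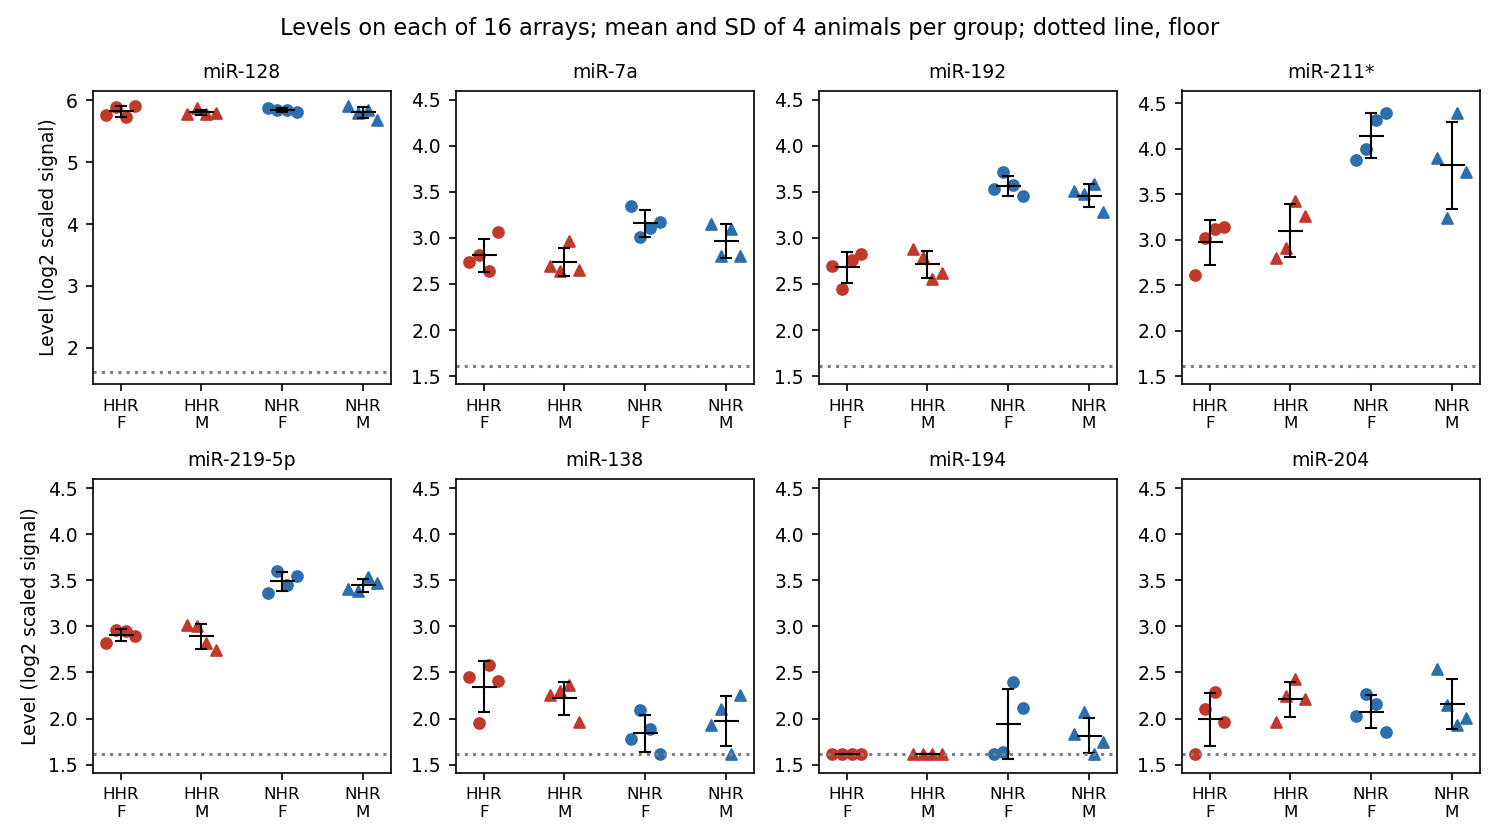
Level (log2 scaled signal, y axis) of 8 miRNAs on each array by strain and sex (F, circles, female; M, triangles, male; x axis); bars give the mean and SD of 4 animals and the dotted line the floor at 1.61. The y axis of miR-128 runs higher than the others and no axis starts at 0. HHR and NHR do not overlap for miR-192 (highest HHR 2.88, lowest NHR 3.28) or miR-219-5p (3.01 and 3.37), and do for the others shown. Of all tested miRNAs 12.1% did not overlap in this direction.

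The members nearest to rno-miR-192 in sequence or position showed little. No spot of rno-miR-215, with the same seed, was flagged, and its level was at the floor on every array. The hairpin neighbour rno-miR-194 was above the floor on 0 of 8 HHR arrays and on 6 of 8 NHR arrays, with a single flagged spot in NHR. Its signal before scaling was 0.525 to 2.86 in HHR and 1.81 to 6.34 in NHR, so the strains overlapped, and it was not tested. The opposite arm rno-miR-192* stayed at the floor on every array.

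The other large difference was in rno-miR-211*, an arm of the hairpin inside Trpm1. Its levels were 2.61 to 3.42 in HHR (median 3.07) and 3.23 to 4.39 in NHR (median 3.95), so the strains overlapped, with NHR male 2 the lowest NHR array. The difference of measured levels, again with detection on no HHR array, was -0.95 ± 0.16 (log2, SE, limma adjusted p = 2.60e-04), -1.17 in females and -0.72 in males. Relative to the median of all miRNAs it was -0.86 as reported, -1.43 with the total gene signal, -0.19 with a normexp background and -0.18 in the authors' table. Before scaling its signals were 7.59 to 11.6 in HHR and 11.2 to 24.0 in NHR (linear intensity), and there the strains overlapped too. Spots were flagged 14 times of 160 in HHR and 80 of 160 in NHR. Under the software's flag per miRNA it was detected on 5 HHR and 8 NHR arrays.

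The 4 arrays on which rno-miR-211* was detected were NHR female 3, female 4, male 3 and male 4, all on slide 2. On slide 1 it was detected in neither strain, although NHR female 1, female 2, male 1 and male 2 had 4, 7, 2 and 6 flagged spots of 20. The measured difference was -0.92 on slide 1 and -0.97 on slide 2 (limma adjusted p = 0.0191 and 0.00796), the first of them between arrays on which the miRNA was not detected. As a bound, its first probe was at least 1.30-fold higher in NHR (mean level 4.02, against a measured mean of 3.1 in HHR), and its second probe at least 1.24-fold (3.94 against 2.95). These probes were detected on 4 and 2 NHR arrays, and NHR arrays without detection entered the bounds as well. These bounds too were taken on scaled signals and hold only under this scaling. Both probes gave similar measured differences, -0.92 and -0.99. The size moved with the processing, from -1.43 with the total gene signal to -0.36 with a normexp background, and the call was lost in the authors' table (-0.09, adjusted p = 0.0890).

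The main arm rno-miR-211 gave no flagged spot, and its level was above the floor on 2 HHR and 2 NHR arrays. The seed relative rno-miR-204 was above the floor on 7 HHR and 8 NHR arrays but detected on none, with 4 flagged spots of 160 in HHR and 0 in NHR, a pattern unlike that of rno-miR-211*. Its signal before scaling was 3.74 to 5.62 in HHR and 2.70 to 5.40 in NHR, which overlapped. Levels of different probes cannot be set against each other on an array, so which arm or relative is the more abundant is not known from these values.

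The oligodendrocyte miRNA rno-miR-219-5p was detected on 3 arrays, all from NHR, which was too few to test. These were female 3, male 2 and male 4, the 3 brightest NHR arrays. Its levels were 2.74 to 3.01 in HHR (median 2.92) and 3.37 to 3.60 in NHR (median 3.46), without overlap. Of all tested miRNAs 12.1% did not overlap in this direction. Before scaling the signals were 7.07 to 9.03 and 7.93 to 13.2, and there the strains overlapped. The difference of the means was -0.57 (log2). Under the software's flag per miRNA it was detected on 7 HHR and 8 NHR arrays, and in that fit of 233 miRNAs, where 45.5% were called lower in HHR, it was called (limma adjusted p = 4.26e-07). As a bound on scaled signals, its second probe was at least 1.09-fold higher in NHR, with mean levels of 3.76 and a measured 3.21 in HHR. That probe was detected on 3 NHR arrays, and NHR arrays without detection entered the bound as well. For the first probe, and for both probes averaged, no bound above 1 could be given. Without scaling the difference was -0.23, so the size of the absolute difference depended on the scaling. Relative to the median of all miRNAs it was -0.48 as reported and -0.47 with no scaling and with the all-probe percentile. With quantile normalization it was -0.32 and with a normexp background -0.11. The level of rno-miR-219-5p was lower in HHR on slide 1 (-0.49) and on slide 2 (-0.65). These values were added after they were seen, so they are no support for a strain difference.

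**Figure D3:**
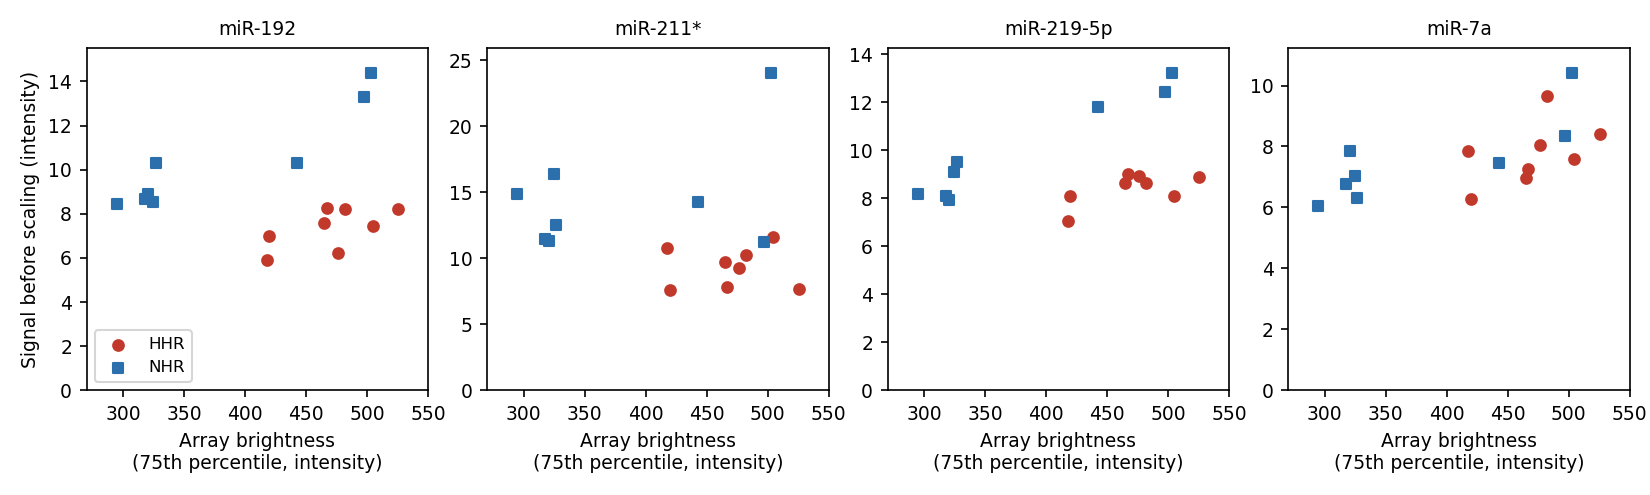
Signal before scaling (y axis, linear intensity) of 4 faint miRNAs against the brightness of each array (x axis, 75th percentile of signal), circles HHR and squares NHR, 8 arrays each. For miR-192 all NHR arrays lie above all HHR arrays (8.47 against 8.25 at the closest). The share of all miRNAs without overlap before scaling is not given. For miR-211*, miR-219-5p and miR-7a the strains overlap in signal, and the 3 brighter NHR arrays hold high miR-219-5p values.

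For rno-miR-7a, which limits growth factor signalling in several tissues and has one of its hairpins inside Hnrnpk, the strain call depended on the processing. It was detected on 3 HHR and 2 NHR arrays, and under the software's flag on all 16. All of its flagged spots, 37 in HHR and 31 in NHR of 160 each, came from 1 of its 2 probes. Taken alone, that probe differed by -0.23 (log2). The other probe was detected on no array, lay at the floor in HHR and differed by -0.05, and both entered the levels of rno-miR-7a. Levels ran from 2.64 to 3.06 in HHR (median 2.71) and from 2.81 to 3.35 in NHR (median 3.1), and the strains overlapped. The difference was -0.29 ± 0.080 (log2, SE, limma adjusted p = 0.00823), -0.35 in females and -0.23 in males, called in females (adjusted p = 0.0231) but not in males.

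Before scaling, the signals of rno-miR-7a were 6.29 to 9.66 in HHR and 6.04 to 10.4 in NHR, with no visible shift. Without scaling the difference was 0.05 (adjusted p = 0.683), and it was -0.02 with quantile normalization, -0.01 with the all-probe percentile and -0.15 with the total gene signal, none of them called. Neither was it called within slide 1 (-0.36, adjusted p = 0.0674), within slide 2 (-0.22, adjusted p = 0.258) or with array brightness in the fit (-0.17, adjusted p = 0.161). Relative to the median of all miRNAs it was -0.19 as reported, with the all-probe percentile and with no scaling, and -0.03 with quantile normalization.

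The brain miRNA rno-miR-128, encoded by hairpins inside R3hdm1 and Arpp21, was the only member detected on every array, with all of its spots flagged. Its levels were 5.74 to 5.91 in HHR (median 5.79) and 5.68 to 5.90 in NHR (median 5.84). The difference was -0.01 ± 0.035 (log2, SE, limma adjusted p = 0.865), and the spread within each strain was wider than this. Its direction followed the scaling, being higher in HHR and called with quantile normalization (0.10, adjusted p = 0.0189), the all-probe percentile (0.27, adjusted p = 2.25e-04) and no scaling (0.33, adjusted p = 0.0463). Relative to the median of all miRNAs it was higher in HHR by 0.08 as reported and 0.09 in those 3 settings.

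The synaptic miRNA rno-miR-138 was detected on no array but often lay above the floor. Its levels were 1.95 to 2.58 in HHR (median 2.33), all 8 arrays being above the floor, and 1.61 to 2.25 in NHR (median 1.91), with 6 arrays above it. The mean was higher in HHR by 0.38 (log2), with overlap. With no filter it passed the threshold (limma adjusted p = 0.0471), in a fit where more than 0.5 of the residual variances were 0, which limma flags as unreliable. With a normexp background and its offset the direction turned, to -0.21, where the median of all tested miRNAs was -0.17. Relative to that median it was -0.04, against 0.47 as reported. No spot of it was flagged on any array, so it is not called here.

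**Figure D4:**
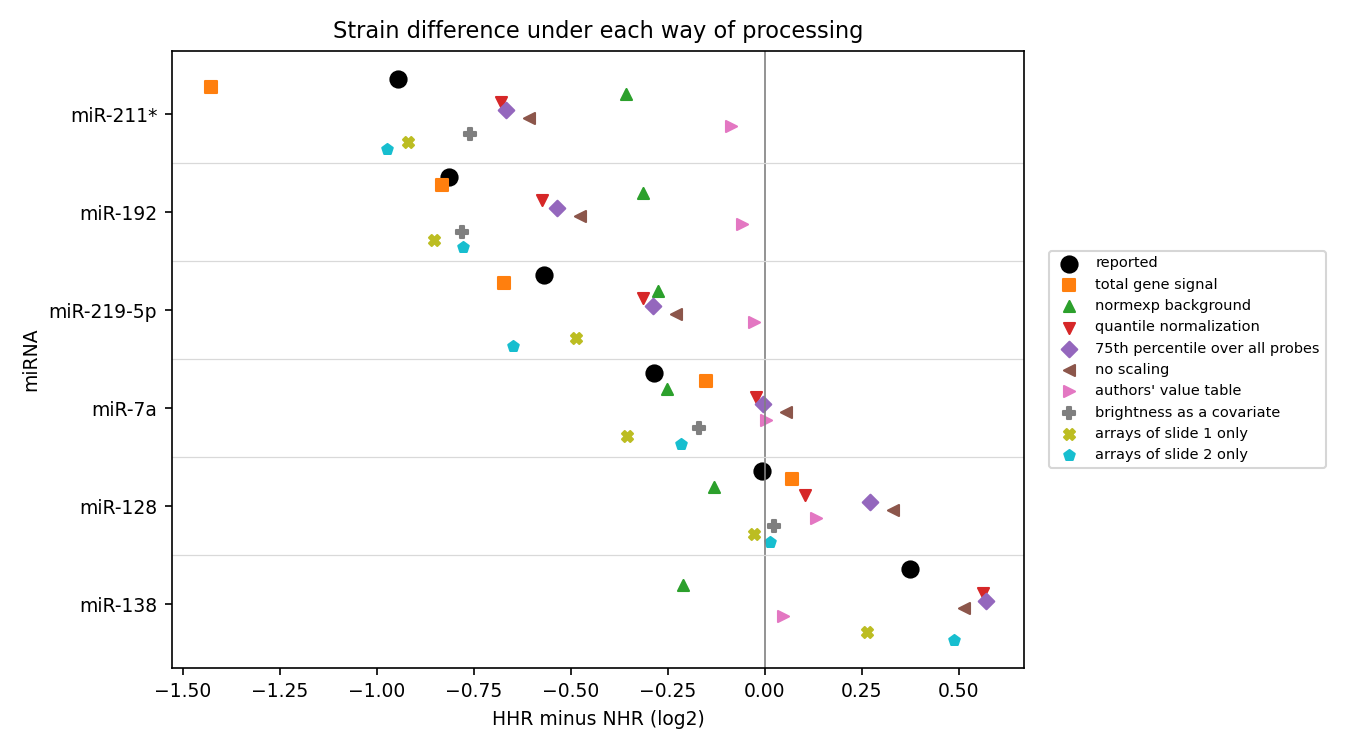
Difference between strains (HHR minus NHR, log2, x axis) of 6 miRNAs (y axis) as reported (black) and under 9 other ways of processing. miR-211* and miR-192 are below 0 in every setting shown; miR-7a runs from -0.36 to 0.05, miR-128 from -0.13 to 0.33 and miR-138 from -0.21 to 0.57.

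Sex made no difference that passed the test in the tested members. Over all miRNAs 1.01% were called by sex and 0% for the interaction between strain and sex (limma, with 7 of 198 at an unadjusted p under 0.05), and of the members 0 were called by either. The largest sex difference was that of rno-miR-7a, higher in females by 0.14 ± 0.080 (log2, SE, limma adjusted p = 0.759). The strain difference of rno-miR-211* in females minus that in males was -0.45 ± 0.31, with an adjusted p of 0.906 for the interaction in limma, so at this number of animals no difference between the sexes was detectable.

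Other miRNAs typical of the same tissues gave a mixed picture. Of 22 such miRNAs on the array, 15 were detected on none of the arrays (68.2%) and 5 on every array. Of the 7 tested, 2 were called lower and 3 higher in HHR, beside 48.5% and 11.1% over all tested miRNAs, with a median difference of 0.04 against -0.09. The neural rno-miR-338 was detected on 7 HHR and 0 NHR arrays and the epithelial rno-miR-31 on 5 HHR and 0 NHR arrays. Both are among the 7 tested, passed the filter only through HHR and had to be the higher there. Their direction and any calls are therefore no support for a strain difference. In bulk tissue, fewer cells of a type and less RNA per cell cannot be told apart, and whether any member's signal came from cells other than heart muscle was not tested.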

How the data were processed

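Total RNA from each pup's heart was hybridised to 1 array, with 100 ng per animal per the labels' protocols. The authors deposited scanner intensity values, which Agilent Feature Extraction 10.7.3.1 had background-subtracted per the file headers, with no scaling between arrays. The detection flags are other values (0 or 1), also deposited. A table of log2 values that the authors deposited was used as an alternative. limma is named in the submitters' processing notes, and how the table was scaled or centred is not given here. Its columns lay at medians of 6.13 to 6.15.

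Processed signals of the spots of a probe were averaged without outlier spots and scaled to equal 75th percentiles over 258 probes, those above background on every array. Probes of a miRNA were averaged, raised to a floor of 3.06 (1.61 on the log2 scale) and put on the log2 scale. A probe counted as detected where more than 0.5 of its spots carried the flag for well above background, and a miRNA where any of its probes did. This is stricter than the software's own flag per miRNA, which was an alternative. The 198 miRNAs detected on at least 4 arrays were fitted with limma 3.58.1 in R 4.3.3, 1 mean per strain and sex, with Benjamini-Hochberg adjustment over those 198 and a threshold of 0.05.

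The members, lists and tests were chosen with earlier results of these data known. Every member is named. Called ones are given in full, those tested and not called by range and difference, and those on 1 to 3 arrays by array counts. rno-miR-138, rno-miR-194, rno-miR-204 and the values of rno-miR-219-5p were added after their values were seen. Older array names were matched to current arms by hand. On simulated arrays with the real means and spreads, the strain comparison recovered 9 of 15 differences of 0.3, 15 of 15 of 0.6 and 15 of 15 of 0.9 (log2) and called 1 of 153 unchanged miRNAs, over 198 miRNAs. The number of arrays limits precision.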

Additional observations from a re-analysis of the deposited data

Results flagged for a closer look

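In the HHR males, the third animal's level of rno-miR-7a was 2.97 (log2), apart from the other 3 males of that group by more than Dixon's critical ratio for 4 samples. It was 1 flag among 24 combinations of group and miRNA examined, and chance flags about 5% of groups. Without this array rno-miR-7a was still called lower in HHR, as it was on leaving out any other array.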

How the results depend on the processing

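The number of members called lower in HHR, 3 as reported, was 0 when detection on at least 8 arrays was required (1 member was then tested) and in the authors' table, and 1 with a floor 4 times higher. It was 2 with the total gene signal, quantile normalization, the all-probe percentile, no scaling, either slide alone and brightness in the fit. With the software's flag per miRNA and with no filter it was 4. The number called higher, 0 as reported, was 1 with quantile normalization, the all-probe percentile and no scaling (rno-miR-128) and with no filter (rno-miR-138). Members detected on every array numbered 2 under the software's flag per miRNA. Leaving out each array in turn left 3 members called lower. rno-miR-128 turned to 0.071 with the total gene signal, 0.10 with quantile normalization, 0.27 with the all-probe percentile, 0.33 without scaling, 0.13 in the authors' table, 0.014 on slide 2 and 0.025 with brightness in the fit, and ran from -0.028 to 0.0089 over the arrays left out. rno-miR-7a turned to 0.054 without scaling and 0.0040 in the authors' table. rno-miR-138 turned to -0.21 with normexp, where the median of all tested miRNAs was -0.17. With a floor 4 times higher all values of rno-miR-7a lay at the floor and gave no difference. The replicate numbers were not taken as pairs, since the labels give no pairing and not every same-numbered pair of arrays correlated above 0.1 (19 of 24 did, with r from 0.013 to 0.54 and a median of 0.19, against -0.097 for different numbers, and 5 of 16 arrays correlated best with their own number). Numbers 1 and 2 lay on slide 1 and 3 and 4 on slide 2. With the replicate block the difference of rno-miR-192 was -0.82 (limma adjusted p = 7.38e-06), and 3 members were called lower. Numbers called by sex or interaction stayed at 0 in all settings run. Differences of faint members depend on the floor and background, and fewer than 4 detections left 43 of 47 members untested.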
